A study of Homo sapiens with 9 samples.

Results

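The 8 genes described here encode enzymes that make or break down prostaglandin E2 and receptors that sense it: the cyclooxygenases PTGS1 and PTGS2, the terminal synthases PTGES, PTGES2 and PTGES3, the receptors PTGER2 and PTGER4, and the degrading dehydrogenase HPGD. They were chosen by gene symbol, with their levels and changes in these libraries already known, out of 58395 gene identifiers in the deposited tables. All 8 were found, and all 8 passed the filter on low counts that left 16575 genes for testing. The cells were MDA-MB-231, an established human line of triple-negative breast cancer with mesenchymal character, harvested 96 h after an siRNA was delivered by reverse transfection. The groups were SKP2-2 (the second siRNA against SKP2), SKP2-1 (the first siRNA against SKP2) and NC (a nontargeting control siRNA), with 3 libraries each. SKP2 is the substrate-binding subunit of an SCF ubiquitin ligase. All groups are cultures of 1 cell line that received an siRNA, and untransfected cells were not analysed here. The title and sample labels give SKP2 as the target, but the design text gives ZIP7, the zinc transporter encoded by SLC39A7.

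Prostaglandin E2 is made stepwise from membrane lipid. Phospholipases free arachidonic acid from membranes, a cyclooxygenase turns it into the unstable intermediate prostaglandin H2, and a terminal synthase isomerizes this to prostaglandin E2. PTGS1 is generally the constitutive cyclooxygenase and PTGS2 the inducible one, whose mRNA is short-lived and responds to interleukin 1, NF-kappaB and C/EBP factors. Secreted prostaglandin E2 acts through G protein-coupled EP receptors, of which EP2 and EP4 raise cyclic AMP. HPGD oxidizes the 15-hydroxyl group and inactivates it. In breast cancer, the pathway is known for its links to inflammation, invasion and immune evasion.

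The promoters of the cyclooxygenases and of PTGES are shown because PTGS2 and PTGES moved in opposite directions with the siRNAs and PTGS1 was higher with both. Each sequence is the 250 bases before a RefSeq start site on GRCh38.p14, read 5′ to 3′ on the gene's own strand. Capitals mark matches, on either strand, to 5 motifs. The kappaB motif was searched as GGGNNTNNC, and the C/EBP motif as TTNNGCAA. The core of a cyclic AMP response element was searched with the letters TGACG. For the TATA box the letters were TATAAA, at any place in the window. The GC box, bound by Sp1-type factors, was searched as GGGCGG. Overlapping matches appear as 1 run of capitals. PTGS1 has 2 listed starts, an upstream and a downstream one.
PTGS2, chr1:186680424-186680673, minus strand: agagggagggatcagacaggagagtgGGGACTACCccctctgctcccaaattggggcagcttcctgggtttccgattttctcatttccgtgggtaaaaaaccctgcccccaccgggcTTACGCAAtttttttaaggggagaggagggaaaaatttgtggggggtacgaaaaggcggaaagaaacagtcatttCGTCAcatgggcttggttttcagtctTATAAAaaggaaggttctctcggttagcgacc
PTGES, chr9:129753043-129753292, minus strand: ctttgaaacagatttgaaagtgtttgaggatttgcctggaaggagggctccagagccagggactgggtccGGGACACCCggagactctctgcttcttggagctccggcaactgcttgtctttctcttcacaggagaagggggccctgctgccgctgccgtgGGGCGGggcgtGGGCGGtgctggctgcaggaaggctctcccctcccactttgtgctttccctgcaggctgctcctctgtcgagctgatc
PTGS1 upstream start, chr9:122370283-122370532, plus strand: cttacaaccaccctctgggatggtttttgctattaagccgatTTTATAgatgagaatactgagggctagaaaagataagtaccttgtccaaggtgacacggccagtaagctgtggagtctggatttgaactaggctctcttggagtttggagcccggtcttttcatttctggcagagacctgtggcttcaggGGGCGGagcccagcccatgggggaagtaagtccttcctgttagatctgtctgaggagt
PTGS1 downstream start, chr9:122375052-122375301, plus strand: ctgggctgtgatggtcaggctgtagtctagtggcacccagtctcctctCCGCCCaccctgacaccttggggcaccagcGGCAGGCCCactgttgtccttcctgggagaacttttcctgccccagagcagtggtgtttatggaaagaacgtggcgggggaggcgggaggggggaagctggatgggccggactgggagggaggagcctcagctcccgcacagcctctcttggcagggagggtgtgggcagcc
In the PTGS2 window a kappaB match began 224 bases before the start, a C/EBP match 133 bases, a reverse-strand response element core 58 bases and a TATA match 32 bases before it. The PTGES window held a reverse-strand kappaB match at 180 bases and GC boxes at 89 and 78 bases, with no TATA match. At the PTGS1 upstream start there were a reverse-strand TATA match at 208 bases and a GC box at 58 bases. Its downstream window had a reverse-strand GC box at 202 bases and a reverse-strand kappaB match at 172 bases. Such matches are common: among 35116 promoter windows of this length, 47.5% held the kappaB letters, 42.6% the GC box, 21.2% the response element core, 10.7% TATA and 9.05% C/EBP.

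Library totals ran from 35.5 to 49.9 M gene counts. SKP2 averaged 5.96 ± 0.236 CPM with SKP2-2, 3.58 ± 0.307 CPM with SKP2-1 and 62.1 ± 3.99 CPM in NC (SD, n = 3 each). CPM are read counts normalized for library size and composition. SLC39A7 passed the threshold with neither SKP2-2 (log2 fold change 0.09, adjusted p = 0.0868) nor SKP2-1 (0.01, adjusted p = 0.936). With library size as the only scaling, it was called higher with SKP2-2 against NC (0.133, adjusted p = 0.0138). Of the markers of the line, VIM lay at 2659 to 3114 CPM, CD44 at 733.5 to 1205 CPM and CAV1 at 483 to 729.5 CPM over all libraries. AXL averaged 1311 CPM with SKP2-2, 630.4 CPM with SKP2-1 and 1398 CPM in NC. By contrast, ESR1 and PGR had 42 and 81 counts over all libraries; ERBB2, EPCAM and CDH1, listed as low or absent, were detected at 81.1 to 96.4, 6.64 to 11.4 and 3.70 to 13.6 CPM. Across genes, NC replicate 1 deviated from its group mean together with SKP2-2 replicate 3 (r = 0.502), and NC replicate 3 together with SKP2-2 replicate 1 (r = 0.453). Results that changed without such a library are given with it left out. The labels do not say that replicates are separate cultures, so p-values measure the spread between these libraries, which may be technical. Because the members were chosen with their changes known, the adjusted p-values printed for them describe the size of a change against the replicate spread and are not independent tests.

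The 8 genes did not move as a block. With SKP2-2 against NC, 3 were higher (PTGS1, PTGER2, HPGD) and 3 lower (PTGS2, PTGES, PTGER4) at an adjusted p under 0.05 by edgeR's quasi-likelihood test, while 25.2% of all tested genes were called higher and 24.1% lower. With SKP2-1 against NC, 4 were higher (PTGS1, PTGS2, PTGES, HPGD) and 1 lower (PTGES3), against 25.0% of all genes higher and 20.5% lower. With SKP2-2 against SKP2-1, 3 were higher (PTGS1, PTGES3, PTGER2) and 4 lower (PTGS2, PTGES, PTGER4, HPGD), against 25.2% and 25.3%. Both siRNAs were compared with the same NC libraries. The median log2 fold change of the members was 0.01 with SKP2-2 and 0.38 with SKP2-1, beside 0.03 and 0.02 over all genes tested. Between the siRNAs it was -0.11, beside 0.03. In bulk RNA, a smaller share of cells expressing a gene and less RNA per cell cannot be told apart.

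**Figure D1:**
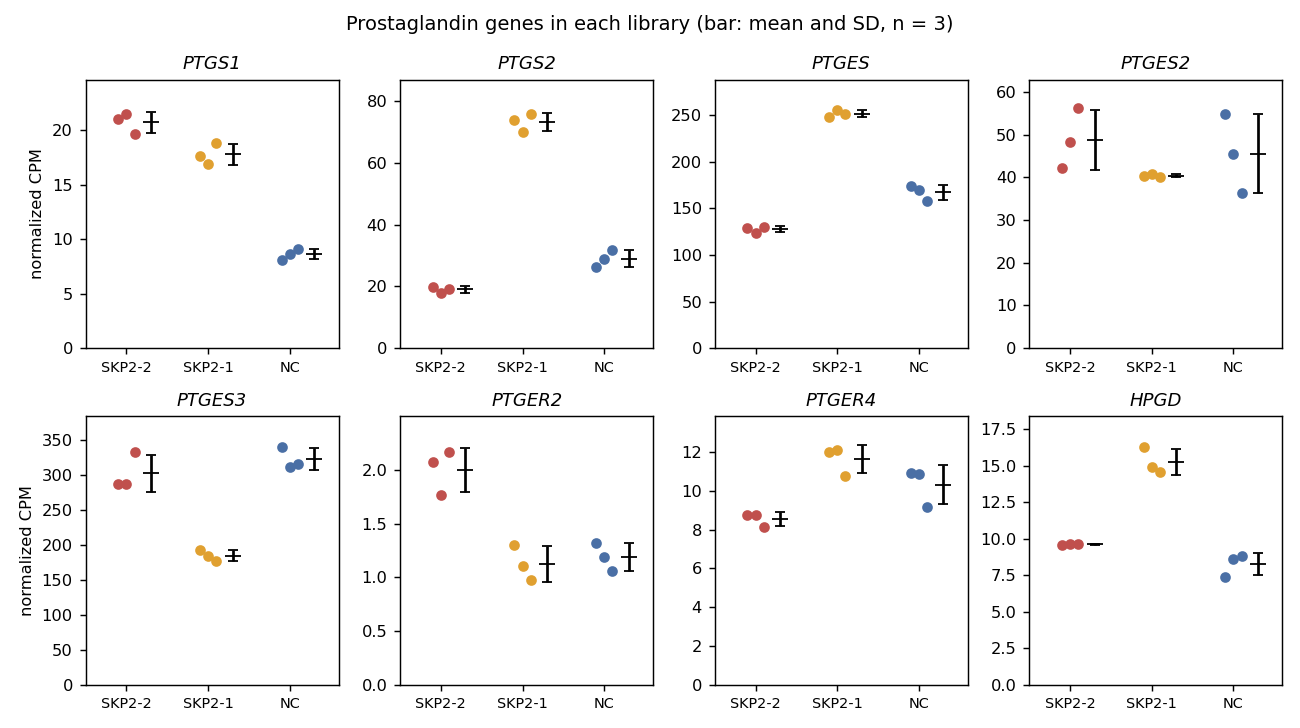
Normalized CPM (y axis from 0) of each gene in each library, with SKP2-2, SKP2-1 and NC on the x axis; points are libraries and the bars give mean and SD (n = 3). PTGS2 and PTGES are highest with SKP2-1 and lowest with SKP2-2, PTGS1 is high with both siRNAs, and PTGES3 is low with SKP2-1.

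PTGS1 (ENSG00000095303, GRCh38 chromosome 9, 122370530 to 122395703, plus strand) was higher with both siRNAs. Its level was 21.1, 21.5 and 19.6 CPM with SKP2-2, 17.6, 16.9 and 18.8 CPM with SKP2-1, and 8.12, 8.67 and 9.08 CPM in NC (replicates 1 to 3). No library of either siRNA came near the NC libraries, and the 2 siRNAs did not overlap. The increase was 2.40-fold with SKP2-2 (log2 fold change 1.26, SE 0.07, adjusted p = 1.19e-08) and 2.06-fold with SKP2-1 (1.04, SE 0.07, adjusted p = 8.38e-08). Between the siRNAs the log2 difference was 0.22 (SE 0.07, adjusted p = 0.0174). It did not pass without SKP2-1 replicate 1 (adjusted p = 0.0615), without SKP2-1 replicate 2 (0.0881) and without SKP2-2 replicate 2 (0.0754), with adjusted p from 0.00176 to 0.0881 over all alternatives. The PTGS1 locus also contains the intronic transcript AL162424.1, which shares 0 exon bases with it.

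PTGS2 (ENSG00000073756, chromosome 1, 186671791 to 186680427, minus strand) moved in opposite directions with the 2 siRNAs. It stood at 20.0, 17.9 and 19.2 CPM with SKP2-2, 74.1, 70.2 and 75.7 CPM with SKP2-1, and 26.2, 28.8 and 31.7 CPM in NC. The 3 groups were fully separated, with NC in the middle. PTGS2 was 1.52 times lower with SKP2-2 than in NC (log2 fold change -0.61, SE 0.07, adjusted p = 1.07e-05) and 2.53-fold higher with SKP2-1 (1.34, SE 0.07, adjusted p = 6.26e-09). The difference between the siRNAs was the largest among the 8 genes: 3.86 times lower with SKP2-2 than with SKP2-1 (log2 -1.95, SE 0.07, adjusted p = 2.17e-10). All 3 calls held under all 17 alternatives. The noncoding RNA PACERR, annotated near PTGS2, had 54 counts over all 9 libraries and was not tested.

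The balance between the cyclooxygenases differed accordingly. Per kilobase of the longest transcript, PTGS2 was 1.06, 0.930 and 1.09 times PTGS1 with SKP2-2, 4.69, 4.63 and 4.49 times with SKP2-1, and 3.60, 3.71 and 3.90 times in NC. With SKP2-2, therefore, the level per kilobase of PTGS2 was close to that of PTGS1 (ratio 1.03 ± 0.0851, SD, n = 3), against 4.60 ± 0.0984 with SKP2-1 and 3.74 ± 0.152 in NC. The SKP2-2 ratio combines a higher PTGS1 with a lower PTGS2, and the SKP2-1 ratio combines 2 increases.

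PTGES (ENSG00000148344, chromosome 9, 129738331 to 129753047, minus strand) encodes microsomal prostaglandin E synthase 1, the inducible terminal enzyme that is often expressed together with PTGS2. Its order across groups was that of PTGS2, with smaller steps. The libraries held 128.9, 124.0 and 130.4 CPM with SKP2-2, 247.9, 255 and 252 CPM with SKP2-1, and 174, 169 and 158 CPM in NC. Here too the 3 groups did not overlap. PTGES was 1.31 times lower with SKP2-2 than in NC (log2 fold change -0.39, SE 0.05, adjusted p = 1.19e-05) and 1.51-fold higher with SKP2-1 (0.59, SE 0.05, adjusted p = 2.65e-07). SKP2-2 was 1.97 times lower than SKP2-1 (-0.98, SE 0.05, adjusted p = 2.01e-09).

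PTGES2 (ENSG00000148334, chromosome 9, 128120693 to 128128462, minus strand) encodes membrane-associated prostaglandin E synthase 2, whose role in making prostaglandin E2 in vivo is debated. It passed the threshold in no comparison. Its level was 42.1, 48.3 and 56.2 CPM with SKP2-2, 40.4, 40.8 and 40.0 CPM with SKP2-1, and 54.9, 45.6 and 36.3 CPM in NC. The SKP2-2 and NC libraries spread widely and overlapped, while the SKP2-1 libraries lay within 1 CPM of each other. The log2 difference was 0.10 for SKP2-2 against NC (95% interval -0.27 to 0.48, adjusted p = 0.632), -0.17 for SKP2-1 against NC (-0.55 to 0.20, adjusted p = 0.425) and 0.28 for SKP2-2 against SKP2-1 (-0.10 to 0.65, adjusted p = 0.192). The highest PTGES2 value with SKP2-2 was that of replicate 3 and the highest in NC that of replicate 1, the 2 libraries that deviated together across genes. Without both, the value for SKP2-2 against NC was 0.14 (adjusted p = 0.343).

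PTGES3 (ENSG00000110958, chromosome 12, 56663341 to 56688408, minus strand) encodes the HSP90 co-chaperone p23, which also has cytosolic prostaglandin E synthase activity. It was lower with SKP2-1. The libraries gave 288, 288 and 334 CPM with SKP2-2, 193, 185 and 177 CPM with SKP2-1, and 341, 312 and 317 CPM in NC. SKP2-1 lay below every other library, and SKP2-2 and NC overlapped. The fall with SKP2-1 was 1.75-fold (log2 fold change -0.80, SE 0.06, adjusted p = 2.84e-07), and SKP2-2 was 1.64-fold higher than SKP2-1 (0.71, SE 0.06, adjusted p = 7.14e-07). SKP2-2 against NC gave -0.09 (95% interval -0.23 to 0.04, adjusted p = 0.248). That value passed without SKP2-2 replicate 3 (-0.17, adjusted p = 0.0305) and without both that library and NC replicate 1 (-0.12, adjusted p = 0.0202), with adjusted p up to 0.558 over all alternatives. Processed pseudogenes of PTGES3 could take some of its reads; the most abundant, PTGES3P1, was counted at 2.16 CPM with SKP2-2, 2.09 CPM with SKP2-1 and 2.70 CPM in NC.

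**Figure D2:**
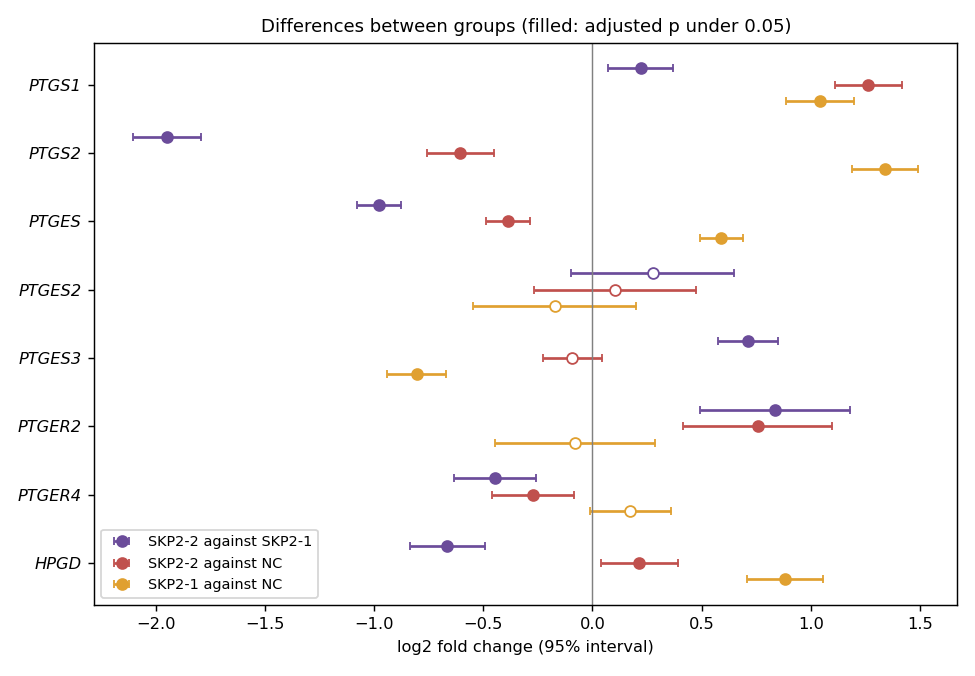
Log2 fold changes (x axis) of the 8 genes with 95% intervals, for SKP2-2 against SKP2-1, SKP2-2 against NC and SKP2-1 against NC; filled points have an adjusted p under 0.05. PTGS2 and PTGES lie left of 0 with SKP2-2 and right of 0 with SKP2-1, and the 3 intervals of PTGES2 include 0.

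PTGER2 (ENSG00000125384, chromosome 14, 52314305 to 52328606, plus strand) encodes the EP2 receptor. It was the least abundant of the 8 genes and was higher with SKP2-2. Its counts were 84, 78 and 101 with SKP2-2, 55, 43 and 48 with SKP2-1, and 47, 54 and 50 in NC, so counting error weighs more here than for the other members. Normalized, these were 2.07, 1.77 and 2.16 CPM with SKP2-2, 1.30, 1.10 and 0.973 CPM with SKP2-1, and 1.32, 1.19 and 1.06 CPM in NC. The SKP2-2 libraries lay above all 6 others, and SKP2-1 and NC overlapped. The increase with SKP2-2 was 1.69-fold over NC (log2 fold change 0.76, SE 0.16, adjusted p = 0.00137) and 1.79-fold over SKP2-1 (0.84, SE 0.16, adjusted p = 0.000662). SKP2-1 against NC gave -0.08 (95% interval -0.45 to 0.29, adjusted p = 0.736).

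PTGER4 (ENSG00000171522, chromosome 5, 40679498 to 40693735, plus strand) encodes the EP4 receptor, which also raises cyclic AMP and additionally signals through phosphatidylinositol 3-kinase. It was measured at 8.73, 8.75 and 8.14 CPM with SKP2-2, 12.0, 12.1 and 10.8 CPM with SKP2-1, and 10.9, 10.9 and 9.14 CPM in NC. The SKP2-2 libraries were the lowest 3 of the 9, and SKP2-1 and NC overlapped. SKP2-2 was 1.36 times lower than SKP2-1 (log2 -0.44, SE 0.09, adjusted p = 0.000808) and 1.21 times lower than NC (-0.27, SE 0.09, adjusted p = 0.0197). The call against NC was lost with library size as the only scaling (adjusted p = 0.055), without NC replicate 2 (0.0822), without SKP2-2 replicate 3 (0.0722) and without both NC replicate 1 and SKP2-2 replicate 3 (0.12), with 0.00313 the lowest adjusted p over all alternatives. SKP2-1 against NC gave 0.17 (95% interval -0.01 to 0.36, adjusted p = 0.121). The gene lies within the span of TTC33 on the opposite strand, with 0 shared exon bases; TTC33 averaged 24.5 CPM with SKP2-2, 24.5 CPM with SKP2-1 and 25.0 CPM in NC.

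The 2 receptors were therefore called in opposite directions with SKP2-2, PTGER2 upward and PTGER4 downward, and neither passed with SKP2-1. The PTGER4 call against NC was lost in 4 of the 17 alternatives. Per kilobase of the longest transcript PTGER4 stayed the more abundant receptor, at 2.22 ± 0.0897 CPM per kb against 0.840 ± 0.0869 for PTGER2 with SKP2-2, 3.02 ± 0.191 against 0.472 ± 0.0685 with SKP2-1, and 2.68 ± 0.265 against 0.4998 ± 0.0552 in NC (SD, n = 3).

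HPGD (ENSG00000164120, chromosome 4, 174490177 to 174523154, minus strand) encodes 15-hydroxyprostaglandin dehydrogenase, the main enzyme of prostaglandin inactivation. It was higher with SKP2-1. Its level was 9.59, 9.61 and 9.67 CPM with SKP2-2, 16.3, 14.9 and 14.6 CPM with SKP2-1, and 7.39, 8.64 and 8.80 CPM in NC. SKP2-1 stood well above both other groups, and the SKP2-2 libraries lay just above the highest NC library. The increase with SKP2-1 was 1.84-fold (log2 fold change 0.88, SE 0.08, adjusted p = 1.22e-06), and SKP2-2 was 1.59 times lower than SKP2-1 (-0.67, SE 0.08, adjusted p = 1.25e-05). For SKP2-2 against NC the value was 0.21 (SE 0.08, adjusted p = 0.0428), close to the threshold. It was lost in 14 of the 17 alternatives, including 8 of the 9 fits that left out 1 library, all but the fit without NC replicate 3. The lowest value among them was 0.13 without NC replicate 1 (adjusted p = 0.16), and adjusted p ran from 0.0138 to 0.178 over all alternatives. Both the synthetic gene PTGS2 and the degrading gene HPGD were thus higher with SKP2-1. The ratio of PTGS2 to HPGD per kilobase of the longest transcript was 1.33 ± 0.0719 with SKP2-2, 3.23 ± 0.221 with SKP2-1 and 2.34 ± 0.0975 in NC (SD, n = 3). The size of this ratio, though not its order across groups, depends on the length used. For HPGD the longest transcript has 3027 bases and the union of exons 5529, and for PTGS2 4514 and 5269.

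Levels of the 8 genes relative to each other were compared per kilobase. The terminal synthases led in every group. PTGES3 came first and PTGES second with SKP2-2 (103 ± 8.98 and 68.4 ± 1.78 CPM per kb) and in NC (109.9 ± 5.39 and 89.5 ± 4.45), whereas with SKP2-1 the order was turned, with PTGES at 134.7 ± 1.95 and PTGES3 at 62.9 ± 2.70 (SD, n = 3). PTGES2 came next in every group, at 21.0 ± 3.02 with SKP2-2, 17.3 ± 0.163 with SKP2-1 and 19.6 ± 3.99 in NC. With SKP2-1, PTGS2 followed at 16.2 ± 0.635, so that the gap to PTGES2 was small and reversed when the union of exons was used as the length (13.9 for PTGS2 and 13.3 for PTGES2). PTGS2 and PTGS1 were nearly equal with SKP2-2, at 4.21 ± 0.225 and 4.12 ± 0.197, which did not differ beyond their spread. PTGS1 had 3.53 ± 0.189 with SKP2-1 and 1.71 ± 0.0950 in NC, where it lay below HPGD (2.74 ± 0.255) and PTGER4 (2.68 ± 0.265), a pair that did not differ beyond its spread. HPGD, whose exon union is much longer than its longest transcript, moved below PTGER4 in all 3 groups with the union as the length. With SKP2-1 it also moved below PTGS1 (2.76 against 3.07 CPM per kb). PTGER2 was last throughout.

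**Figure D3:**
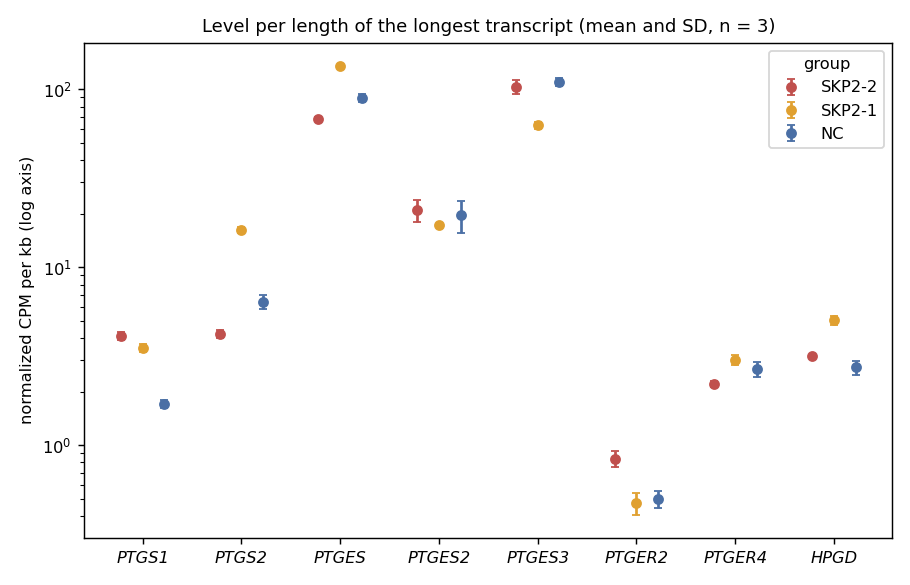
Mean level per kilobase of the longest transcript (log y axis, normalized CPM per kb) of the 8 genes in SKP2-2, SKP2-1 and NC, with SD (n = 3). PTGES3 and PTGES lie at the top and PTGER2 at the bottom in each group, and PTGES exceeds PTGES3 with SKP2-1 only among these 3 groups.

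Genes whose pattern was most like that of PTGS2 were sought among 12126 genes with a mean of at least 2 CPM, by Pearson's r of log2 CPM over the 9 libraries. The closest were LAMC1, a laminin chain (r = 0.9977; 388.5 CPM with SKP2-2, 865 CPM with SKP2-1 and 502 CPM in NC), MAL2, a protein of transcytosis (r = 0.9977; 82.2, 219.7 and 108.7 CPM in the same order of groups), and CEMIP2, a hyaluronidase of the cell surface (r = 0.9976; 130.1, 435 and 179.8 CPM). For PTGS1 they were RAB29, a small GTPase (r = 0.9975; 89.6, 82.4 and 57.3 CPM), DESI2 (r = 0.9971; 86.5, 72.7 and 38.3 CPM) and VLDLR, a lipoprotein receptor (r = 0.9967; 66.2, 60.2 and 37.4 CPM). The 9 libraries form 3 groups, so these coefficients mainly compare 3 group means.

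Other genes of the pathway were followed in 7 lists with 90 genes, of which 66 were tested. The counts for each list stand beside the shares over all tested genes. With SKP2-2 against NC these were 25.2% higher and 24.1% lower, and with SKP2-1 against NC 25.0% and 20.5%. For arachidonate release and reuptake, 13 of 18 genes were tested. With SKP2-2 against NC 6 rose and 2 fell (median log2 fold change 0.36, beside 0.03 over all genes), and with SKP2-1 against NC 7 rose and 1 fell (0.28, beside 0.02). MGLL, the monoacylglycerol lipase, averaged 247.0 ± 5.48 CPM with SKP2-2, 238.0 ± 6.04 CPM with SKP2-1 and 142 ± 3.13 CPM in NC, a rise with each siRNA (log2 fold changes 0.80 and 0.74, adjusted p = 5.93e-09 and 1.19e-08). PLA2G4C, cytosolic phospholipase A2 gamma, also rose with SKP2-2 (0.94, adjusted p = 1.10e-05) and SKP2-1 (1.23, adjusted p = 9.68e-07). ANXA1, annexin A1, a glucocorticoid-induced protein that restrains phospholipase A2, was at 232 ± 8.71 CPM with SKP2-2, 637 ± 8.58 CPM with SKP2-1 and 470.0 ± 38.0 CPM in NC. It fell with SKP2-2 (-1.02, adjusted p = 1.16e-08) and rose with SKP2-1 (0.44, adjusted p = 3.02e-05). FAAH, the fatty acid amide hydrolase, was low at 1.10 ± 0.164 CPM with SKP2-2, 0.464 ± 0.0679 CPM with SKP2-1 and 0.673 ± 0.247 CPM in NC. Its call for SKP2-2 against NC (0.68, adjusted p = 0.035) was lost without NC replicate 1 (adjusted p = 0.101), SKP2-2 replicate 1 (0.0633) or SKP2-2 replicate 2 (0.137), and SKP2-1 against NC (-0.58, adjusted p = 0.117) passed without NC replicate 1 (0.012). The secreted phospholipase genes PLA2G2A, PLA2G5 and PLA2G10 had 0 counts in NC.

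Of the other prostanoid synthases 7 of 10 were tested. Against NC 4 rose and 1 fell with SKP2-2 (median 0.37), and 3 rose and 1 fell with SKP2-1 (0.44). TBXAS1, thromboxane synthase, was at 10.9 ± 0.443 CPM with SKP2-2, 8.88 ± 0.445 CPM with SKP2-1 and 5.37 ± 0.480 CPM in NC (log2 fold changes 1.01 and 0.72 against NC, adjusted p = 4.66e-07 and 1.34e-05). AKR1B1, an aldo-keto reductase with prostaglandin F synthase activity, followed the order of PTGS2 with 154 ± 6.46 CPM with SKP2-2, 361 ± 3.52 CPM with SKP2-1 and 264.5 ± 3.68 CPM in NC. It fell with SKP2-2 (-0.78, adjusted p = 9.15e-09) and rose with SKP2-1 (0.45, adjusted p = 1.76e-06). AKR1C3, another prostaglandin F synthase, rose with SKP2-1 (0.83, adjusted p = 2.93e-07) and gave -0.01 with SKP2-2 (adjusted p = 0.949). GSTM2, a glutathione transferase, gave 0.53 with SKP2-2 (adjusted p = 0.0288), which was lost without NC replicate 1 (0.0725), NC replicate 2 (0.0651), SKP2-2 replicate 1 (0.104) or SKP2-2 replicate 3 (0.095). With SKP2-1 it gave 0.44 (adjusted p = 0.0695), which passed without SKP2-1 replicate 2 (0.0271).

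Among the other prostanoid receptors 3 of 7 were tested. Against NC 1 rose and 1 fell with SKP2-2 (median 0.30), and 2 rose with SKP2-1 (0.97). PTGFR, the prostaglandin F receptor, was at 0.863, 0.544 and 0.364 CPM with SKP2-2, 2.08, 2.13 and 2.15 CPM with SKP2-1, and 0.928, 1.35 and 0.847 CPM in NC. It rose with SKP2-1 (1.02, adjusted p = 0.00255), and with SKP2-2 the groups overlapped (-0.84, adjusted p = 0.0212). The SKP2-2 call did not hold without NC replicate 2 (adjusted p = 0.119), SKP2-2 replicate 2 (0.0705) or SKP2-2 replicate 3 (0.0901). PTGER3, the EP3 receptor, which lowers cyclic AMP, was at 0.570 ± 0.0246 CPM with SKP2-2, 0.591 ± 0.0882 CPM with SKP2-1 and 0.292 ± 0.135 CPM in NC. Its calls against NC (0.91 with SKP2-2, adjusted p = 0.0238, and 0.97 with SKP2-1, adjusted p = 0.0181) were both lost without NC replicate 1 (0.072 and 0.0553). The first was also lost without SKP2-2 replicate 1 (0.0518), 2 (0.0621) or 3 (0.0535), and the second without SKP2-1 replicate 3 (0.0825). PTGDR and PTGIR had 0 counts in NC, and PTGER1 had 2.

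All 5 genes of transport and inactivation were tested. Against NC 1 rose and 3 fell with SKP2-2 (median -0.27), and 1 rose with SKP2-1 (0.09). PTGR3, a prostaglandin reductase, was at 10.9 ± 0.488 CPM with SKP2-2, 26.7 ± 0.938 CPM with SKP2-1 and 24.6 ± 1.30 CPM in NC, a fall with SKP2-2 (-1.18, adjusted p = 9.70e-09) but no call with SKP2-1 (0.12, adjusted p = 0.153). SLCO2A1, the prostaglandin uptake transporter, also fell with SKP2-2 (-1.76, adjusted p = 0.00243), at levels of 0.0999 ± 0.0204 CPM with SKP2-2, 0.318 ± 0.101 CPM with SKP2-1 and 0.339 ± 0.0584 CPM in NC. PTGR2, a second reductase, fell with SKP2-2 (-0.27, adjusted p = 0.0139), a call lost without NC replicate 3 (0.0598) or SKP2-2 replicate 2 (0.067). ABCC4, the efflux pump that exports prostaglandin E2, was at 68.9 ± 2.65 CPM with SKP2-2, 70.2 ± 2.15 CPM with SKP2-1 and 61.8 ± 3.98 CPM in NC. Its calls (0.16 with SKP2-2, adjusted p = 0.0286, and 0.18 with SKP2-1, adjusted p = 0.0144) were lost without NC replicate 1 (0.118 and 0.0641). The first was also lost without SKP2-2 replicate 1 (0.154) or 2 (0.0913), and the second without SKP2-1 replicate 3 (0.0717).

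Other eicosanoid branches, the lipoxygenase, leukotriene and epoxide enzymes, had 6 of 12 genes tested, of which 1 rose with SKP2-2 (median 0.07) and 2 with SKP2-1 (0.36) against NC. LTA4H, leukotriene A4 hydrolase, rose with SKP2-1 (0.26, adjusted p = 0.000722), as did EPHX1, an epoxide hydrolase (0.46, adjusted p = 6.20e-06). ALOXE3, an epidermal lipoxygenase, rose with SKP2-2 (1.40, adjusted p = 0.00545) at 0.374 ± 0.0915 CPM with SKP2-2, 0.169 ± 0.00926 CPM with SKP2-1 and 0.136 ± 0.0454 CPM in NC. ALOX12 and ALOX15 had 0 counts in NC.

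For cyclic AMP signalling downstream of the EP receptors, 15 of 21 genes were tested, with 7 higher and 6 lower with SKP2-2 (median 0.03) and 7 higher and 5 lower with SKP2-1 (0.13) against NC. PRKAR2A, a regulatory subunit of protein kinase A, was at 104 ± 3.65 CPM with SKP2-2, 107 ± 1.31 CPM with SKP2-1 and 202 ± 9.79 CPM in NC, a fall with both siRNAs (-0.95 and -0.92, adjusted p = 3.46e-09 and 5.23e-09). PDE4B, a phosphodiesterase that degrades cyclic AMP, was at 6.01 ± 0.258 CPM with SKP2-2, 9.27 ± 0.532 CPM with SKP2-1 and 3.51 ± 0.295 CPM in NC, and rose with both (0.78 and 1.41, adjusted p = 1.15e-05 and 4.68e-08). PDE4D of the same family rose by 0.20 with SKP2-2 and 0.75 with SKP2-1 (adjusted p = 0.00598 and 1.01e-07). ADCY9, an adenylyl cyclase, fell with SKP2-2 (-0.82, adjusted p = 2.80e-07). With SKP2-1 it gave 0.13 (adjusted p = 0.127), which passed without NC replicate 1 (0.16, adjusted p = 0.0297).

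All 17 genes listed as inducers or mRNA regulators of PTGS2 were tested. Against NC 1 rose and 6 fell with SKP2-2 (median -0.22), and 4 rose and 4 fell with SKP2-1 (-0.03). IL1B, interleukin 1 beta, was at 2.86, 2.04 and 2.23 CPM with SKP2-2, 16.8, 18.2 and 21.3 CPM with SKP2-1, and 2.87, 3.32 and 3.28 CPM in NC. It rose 5.93-fold with SKP2-1 (2.57, SE 0.13, adjusted p = 3.86e-09). With SKP2-2 it gave -0.42 (adjusted p = 0.0234), which was lost without NC replicate 2 (0.0771), NC replicate 3 (0.0724), SKP2-2 replicate 2 (0.105) or SKP2-2 replicate 3 (0.0781). IL1A, interleukin 1 alpha, was at 3.57 ± 0.120 CPM with SKP2-2, 13.7 ± 0.527 CPM with SKP2-1 and 4.13 ± 0.511 CPM in NC, 3.30-fold higher with SKP2-1 (1.72, SE 0.09, adjusted p = 8.61e-09). With SKP2-2 IL1A gave -0.22 (adjusted p = 0.0884), which passed without NC replicate 1 (-0.29, adjusted p = 0.021). CEBPB, which encodes a C/EBP factor, was at 9.25 ± 0.720 CPM with SKP2-2, 26.7 ± 0.928 CPM with SKP2-1 and 19.7 ± 2.86 CPM in NC. It fell with SKP2-2 (-1.08, adjusted p = 8.80e-07) and rose with SKP2-1 (0.44, adjusted p = 0.00164). NFATC1, a calcium-dependent factor, fell with SKP2-1 (-1.01, adjusted p = 0.00276) and gave -0.40 with SKP2-2 (adjusted p = 0.143), which passed without NC replicate 3 (-0.59, adjusted p = 0.0366).

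**Figure D4:**
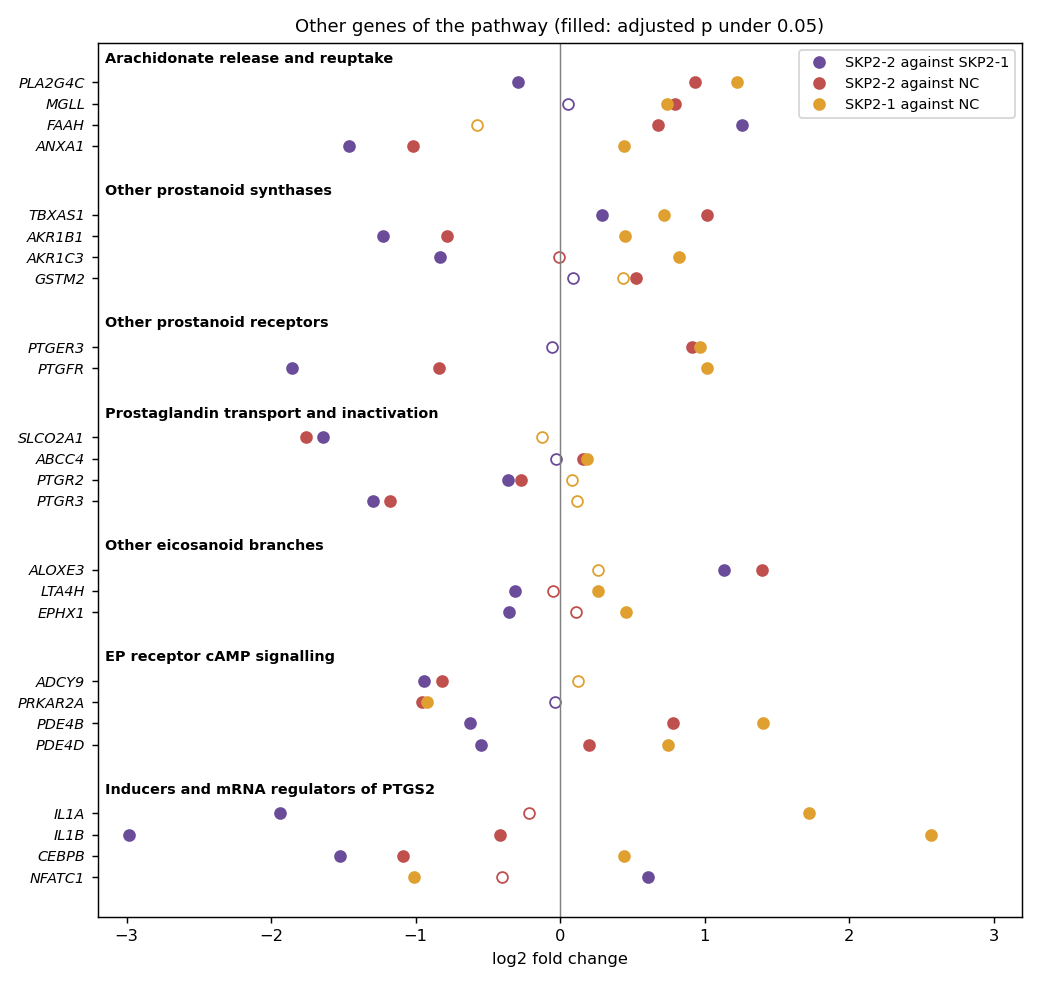
Log2 fold changes (x axis) of the 25 named genes of the 7 lists, for SKP2-2 against SKP2-1, SKP2-2 against NC and SKP2-1 against NC; filled points have an adjusted p under 0.05. Filled points of ANXA1, AKR1B1, PTGFR, IL1B and CEBPB lie left of 0 with SKP2-2 and right of 0 with SKP2-1 against NC. PTGS2 and PTGES were called in these directions too. IL1A, AKR1C3, PTGR2, PTGR3, LTA4H and ADCY9 lie on the same sides, each with 1 open point. The open point of AKR1C3 (-0.01) changed sign in some alternatives. Filled points of MGLL, PLA2G4C, TBXAS1, PDE4B, PDE4D, PTGER3 and ABCC4 lie right of 0 with both siRNAs, and those of PRKAR2A left. The SKP2-2 calls of PTGFR and IL1B, and both calls of PTGER3 and ABCC4, were lost in some fits that left out 1 library.

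Directly between the siRNAs, 25.2% of all tested genes were called higher and 25.3% lower with SKP2-2 than with SKP2-1. Of the 13 tested release genes, 2 were higher and 4 lower. The counts were 3 and 2 for the other synthases, 0 and 1 for the receptors, 0 and 3 for transport and inactivation, 1 and 2 for the other branches, 3 and 5 for cyclic AMP signalling, and 4 and 6 for the inducers. IL1B was 7.92 times lower with SKP2-2 than with SKP2-1 (log2 -2.98, adjusted p = 9.22e-10), IL1A 3.83 times lower (-1.94, adjusted p = 2.55e-09) and CEBPB 2.88 times lower (-1.53, adjusted p = 3.14e-08). ANXA1 was 2.75 times lower (-1.46, adjusted p = 4.18e-10) and AKR1B1 2.34 times lower (-1.23, adjusted p = 1.49e-10). Lower too were PTGFR (-1.86, adjusted p = 3.67e-05), SLCO2A1 (-1.64, 0.00428) and PTGR3 (-1.29, 3.535e-09). FAAH (1.26, adjusted p = 0.00136), ALOXE3 (1.135, 0.0142), NFATC1 (0.61, 0.0471) and TBXAS1 (0.29, 0.00931) were higher with SKP2-2. Of these, the ALOXE3 call was lost without SKP2-2 replicate 2 (adjusted p = 0.0714) and the TBXAS1 call without SKP2-1 replicate 2 (0.0505). The NFATC1 call was lost in several such fits, for example without SKP2-1 replicate 3 (0.159).

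Markers of other cell types that can express cyclooxygenases were also counted. The summed level of 5 immune markers, of which 3 were tested, was 4.66 to 4.99 CPM with SKP2-2, 5.64 to 6.28 CPM with SKP2-1 and 2.81 to 3.49 CPM in NC, with CD3E at 2 counts in all. For 3 endothelial markers, of which 1 was tested, it was 3.40 to 4.35 CPM with SKP2-2, 8.64 to 10.2 CPM with SKP2-1 and 3.80 to 4.28 CPM in NC. The endothelial sum was almost wholly PECAM1 (3.62 CPM with SKP2-2, 9.32 CPM with SKP2-1 and 4.03 CPM in NC). CDH5 (13 counts in all; 0.0692, 0.0288 and 0 CPM in the same order) and VWF (42 counts in all; 0.187, 0.0805 and 0.0530 CPM) were highest with SKP2-2. The 3 fibroblast markers summed to 1.97 to 2.49, 1.82 to 2.11 and 1.21 to 1.59 CPM in the same order, with 3 counts of DCN in all, and the 3 mast cell markers to 0.493 to 0.964, 0.564 to 1.06 and 0.310 to 0.450 CPM, with TPSAB1 at 0. The immune, fibroblast and mast cell sums were thus above NC with both siRNAs. Of all tested genes, 25.2% were called higher with SKP2-2 and 25.0% with SKP2-1 against NC. The fibroblast sum was almost wholly LUM (2.18 CPM with SKP2-2, 1.86 CPM with SKP2-1 and 1.34 CPM in NC). Most of the mast cell sum was CPA3 (0.751, 0.499 and 0.231 CPM in the same order). KIT, another mast cell marker, was below NC with SKP2-2 and above it with SKP2-1 (0.0444, 0.286 and 0.128 CPM). PECAM1, but not the other 2 endothelial markers, was highest with SKP2-1. The part of such cells in the changes of PTGS1 and PTGS2 was not tested.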

How the data were processed

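The authors deposited raw read counts per Ensembl gene in a separate table for each library. HTSeq 0.6.1, STAR, DESeq2 1.16.1, Trim Galore 0.4.1 and FastQC 0.11.2 are named, per the submitters' processing notes, without roles or settings. The genome build, annotation and strand setting are not given in the sources used here, so how reads of overlapping or near-identical genes were assigned cannot be told. Per the labels' protocols, RNA was isolated on RNeasy columns with DNase I. Reads outside genes (5.34 to 5.92%) and ambiguous reads (3.88 to 3.97%) were left out of the totals.

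Symbols came from a supplied name table (57754 identifiers) or GENCODE 29 (521), coordinates from GENCODE 29 on GRCh38, and promoters from RefSeq, which had entries for all 8 members. Using filterByExpr of edgeR 4.0.16 (R 4.3.3; minimum count 10, minimum total 15), low genes were removed; counts were scaled by TMM and fitted over all 9 libraries with group as the only term (robust quasi-likelihood, two-sided F tests, Benjamini-Hochberg adjustment over 16575 genes, threshold 0.05). The SE is the log2 fold change over the square root of F. The script was tested on simulated data. Alternatives were RLE factors, library size only, no filter, 1 CPM in 3 libraries, DESeq2 1.42.0, only the compared groups, a replicate block, and each library left out.

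The members and lists were chosen with earlier results of these data known. From each related list, up to 4 called genes with the largest change against NC were named, and for PTGS2 and the next most variable member the 3 genes with the highest r (prior count 0.5). A few other genes were named after their values were seen: listed genes at or near 0 counts, NFKB1, CEBPD, RELA, PTGES3P1, PACERR, AL162424.1 and TTC33. Intervals cover the spread between libraries.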

Additional observations from a re-analysis of the deposited data

Results flagged for a closer look

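The effect of SKP2 siRNA differed between the 2 siRNAs for 7 of the 8 genes, by the direct test of SKP2-2 against SKP2-1 in the edgeR fit. The log2 difference was 0.22 for PTGS1 (adjusted p = 0.0174), -1.95 for PTGS2 (2.17e-10), -0.98 for PTGES (2.01e-09) and 0.71 for PTGES3 (7.14e-07). It was 0.84 for PTGER2 (adjusted p = 0.000662), -0.44 for PTGER4 (0.000808) and -0.67 for HPGD (1.25e-05). Among these, PTGS2 and PTGES were also called in opposite directions against NC. SKP2 itself differed by 0.73 between the siRNAs (adjusted p = 6.46e-06), with the higher level under SKP2-2; its part in the differences was not tested. Over all tested genes 25.2% were higher and 25.3% lower in the same comparison, so a difference between the siRNAs was common.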

How the results depend on the processing

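The members past the threshold numbered 4 to 6 with SKP2-2 against NC (6 as reported), 5 with SKP2-1 against NC in all 17 alternatives, and 6 to 7 with SKP2-2 against SKP2-1 (7 as reported). For single members, 382 of the values under alternatives kept direction and side of the threshold, 21 fell short of it, 2 newly passed and 3 uncalled ones changed sign. The last were PTGES2, SKP2-2 against NC, without NC replicate 3 or SKP2-2 replicate 3 (-0.0395 and -0.0094; up to 0.2439 with libraries left out), and PTGER2, SKP2-1 against NC, without SKP2-1 replicate 3 (0.0213; down to -0.1949). No reported count of genes moved by over 1.5 times. Uncalled values of other named genes that changed sign were SLC39A7, SKP2-1 against NC, with RLE factors (-0.0142), 1 CPM in 3 libraries (-0.0303), DESeq2 (-0.0148), only the compared groups (-0.0642) and libraries left out (-0.0314 to 0.0242; -0.015 without both NC replicate 1 and SKP2-2 replicate 3); AKR1C3, SKP2-2 against NC, with library size only (0.0376) and libraries left out (-0.0698 to 0.0415); and SLCO2A1, SKP2-1 against NC (-0.3846 to 0.1024 with libraries left out). For SKP2-2 against SKP2-1 they were ABCC4 with library size only (0.0083), without both libraries (0.0201) and with libraries left out (-0.0552 to 0.0054), GSTM2 (-0.0478 to 0.3045) and PTGER3 (-0.147 to 0.076) with libraries left out, and PRKAR2A without both libraries (0.0039; -0.0696 at the lowest with libraries left out). The cause was not tested. Leaving out both libraries was chosen after seeing the data.

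The labels do not say whether replicate numbers pair the samples. Deviations of same-numbered libraries correlated across genes at 0.0329, 0.0058 and 0.0546 between SKP2-1 and NC. The values were -0.498, 0.00504 and -0.455 between SKP2-2 and NC, and -0.0279, -0.011 and -0.0541 between the siRNAs. Deviations taken from only 3 libraries per group cannot settle whether the samples were paired. With the replicate block, 3771 genes were higher and 3730 lower with SKP2-2 against NC, 3763 and 3055 with SKP2-1 against NC, and 3677 and 3823 with SKP2-2 against SKP2-1. Members past the threshold then numbered 5, 5 and 7, the lost call being HPGD with SKP2-2 (adjusted p = 0.083). Depth limits PTGER2 most, with 43 to 101 counts per library.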
